A study of Homo sapiens with 12 samples.

Results

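The genes followed here encode the complexes of oxidative phosphorylation, measured on 12 Illumina expression arrays of PANC-1 cells, a human pancreatic ductal adenocarcinoma line. The cells carried a stable, tamoxifen-inducible form of E47, a basic helix-loop-helix transcription factor that is encoded by TCF3 and binds E-box DNA. They were left untreated (4 arrays) or given tamoxifen at 1 µM (4 arrays) or 4 µM (4 arrays) for 48 hours. Members were the probes whose annotated gene symbol begins with NDUF, UQCR, COX4, COX5, COX6, COX7, COX8 or ATP5, or is SDHA, SDHB, SDHC, SDHD or CYC1. The rule matched 130 probes with 94 symbols, of which 3 probes of 2 pseudogenes were left out. The members were thus 127 of the 47323 probes and stood for 92 genes. Of these genes, 81 encode subunits of complexes I to V and 8 encode complex I assembly factors. The other 3 are COX7A2L (a supercomplex factor), ATP5IF1 (an inhibitor of ATP synthase) and NDUFB2-AS1 (an antisense RNA). All 12 arrays came from cells with the inducible E47. Cells without it were not analysed here, so effects of tamoxifen and of E47 activity cannot be told apart. No vehicle or time is given for the untreated cells, and the treatment notes print the lower dose as a volume where the sample titles give 1 µM. The labels do not say whether the 4 arrays of a group came from separate cultures, so p-values measure the spread between arrays, which may be technical.

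Oxidative phosphorylation is the route by which mitochondria make much of a cell's ATP. Complexes I and II pass electrons from NADH and succinate to ubiquinone, complex III passes them on to cytochrome c, and complex IV hands them to oxygen. Complexes I, III and IV pump protons on the way, and complex V, the ATP synthase, uses the proton gradient to make ATP. A few subunits are encoded by mitochondrial DNA and were not analysed here; all members are nuclear genes, whose promoters often hold sites for NRF1, GABPA and YY1. In epithelial tumours such as pancreatic carcinoma the balance between this route and glycolysis varies with growth state.

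Each gene was read from its brightest probe on average, out of those above background on at least 4 of 12 arrays, which left 84 members to test, 81 of them above background on all 12 arrays. Values below are log2 intensities after background correction, and a log2 fold change is followed by ± its SE. A member was called when limma's moderated test, two-sided, gave a Benjamini-Hochberg adjusted p, written q, under 0.05 over 18454 features, which were 12451 named genes and 6003 probes without a gene name. Levels of different probes cannot be compared on this platform, so each comparison is within a probe. The intensities had been brought to a common distribution, so a change is relative to the other probes and the depth of each array is unknown.

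The first principal component held 71.5% of the variance and separated treated from untreated arrays. On the second (7.89%), L2 and L4 lay at 21.2 and 20.2 and L1 and L3 at 9.08 and 7.62, while H1 lay at -3.68 and the other 4 µM arrays between -17.0 and -14.2 (arrays are named U1 to U4 for untreated cells, L1 to L4 for 1 µM and H1 to H4 for 4 µM). The probe of TCF3 read lower at both doses, at -0.79 ± 0.12 at 1 µM and -1.44 ± 0.12 at 4 µM as log2 fold changes; which part of the transcript it reads is not given, so it does not check the induced protein. All 8 ductal and epithelial markers were above background on every array, with 5 higher and 1 lower at 1 µM and 6 higher and 1 lower at 4 µM; KRT8 had log2 fold changes of 1.12 and 0.87, KRT18 of 1.16 and 0.65 and CDH1 of -1.13 and -1.27 at those doses. None of 3 endothelial markers was detected. Among markers of other cell types, 2 of 5 acinar and 3 of 5 fibroblast markers were higher at both doses. Of these, PRSS1, CELA3A, COL3A1 and LUM were above background on no untreated array. They passed the filter through treated arrays alone, so their calls are only descriptive. The leukocyte markers CD68 and CD14, 2 of 4, were lower, and PTPRC and CD3E were not detected. No islet marker was called. Over all features 20.9% were lower at each dose, and 19.4% were higher at 1 µM and 21.2% at 4 µM. The summed intensity of the 8 ductal and epithelial markers was 42024 to 50901 on untreated arrays, 70265 to 82404 on 1 µM arrays and 65884 to 79090 on 4 µM arrays. That of the 5 fibroblast markers was 522 to 602 in untreated cells, 808 to 959 at 1 µM and 1051 to 1155 at 4 µM, that of the 5 acinar markers 464 to 478, 839 to 933 and 1146 to 1274, and that of the 4 leukocyte markers 4494 to 4704, 1860 to 2486 and 1970 to 2306, in the same order of dose. These sums include background, whose limit was 127.7 for each probe, so the acinar and fibroblast sums of untreated cells are largely background. The part of the markers in the results below was not tested. All arrays were of the cultured PANC-1 line, so a change of a marker here is not a count of another cell type. In bulk RNA, fewer cells with a transcript and less of it per cell cannot be told apart.

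At 1 µM the called members were nearly all lower, and they lay in complexes I, III and V and among the complex I assembly factors; in complexes II and IV none was lower. At 4 µM fewer members were lower and more were higher. At 1 µM, 26 of 84 members (31.0%) were lower and 1 (1.19%) was higher than in untreated cells; over all features, 20.9% were lower and 19.4% higher. At 4 µM, 11 members (13.1%) were lower and 8 (9.52%) were higher than in untreated cells, and over all features 20.9% were lower and 21.2% higher. Both dose comparisons use the same 4 untreated arrays. With the arrays centred on their medians in place of the deposited scaling, the 4 µM split was 16 lower and 7 higher, and in the deposited scaling 5 members were higher without H2. The median log2 fold change of the members was -0.13 at 1 µM and -0.02 at 4 µM, beside -0.03 over all features at either dose. The share lower at 1 µM was thus above that of all features, and the share higher was far below it. At 4 µM the members were called less often than all features in both directions. Most members are bright, while many features are dim. Among features above background on all 12 arrays, 26 of 81 members were lower at 1 µM, beside 3494 of 12887 features. The excess of lower calls was smaller there. In that setting 1 member and 2890 features were higher at 1 µM. The changes were small: 3 members differed at least 1.5-fold from the untreated arrays at 1 µM and 2 at 4 µM. The counts are descriptions, and the list as a whole was not tested.

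**Figure D1:**
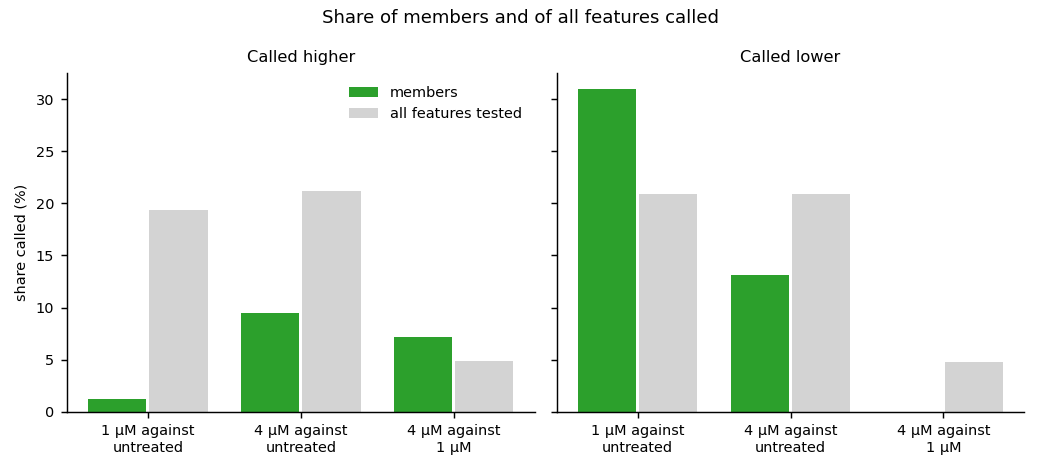
Share of the 84 tested members and of all 18454 features called higher (left) or lower (right) in each comparison, in percent. At 1 µM, 31.0% of members were lower against 20.9% of all features, and 1.19% were higher against 19.4%; between the doses no member was lower at 4 µM.

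Across the 2 doses, 10 members were lower and 1, ATP5ME, was higher in each comparison with untreated cells. A further 16 members were lower at 1 µM alone, 7 were higher and 1 was lower at 4 µM alone, and 49 were called at neither dose. Whether a call at 1 dose alone is a difference between doses is given by the direct comparison. There, 6 members (7.14%) were higher at 4 µM than at 1 µM and none was lower, at a limma q under 0.05. Over all features 4.83% were higher and 4.76% lower at that threshold. At an unadjusted limma p under 0.05, 22 members were higher and 0 lower. The share of all features at this looser threshold was not counted. The 6 called at a q under 0.05 were NDUFB8, NDUFA1, NDUFA8, NDUFS3, NDUFAF6 and COX7B, with log2 differences between 0.36 and 0.47. Of the 84 members, 70 had a difference above 0, beside 51.1% of all features, and the median difference was 0.14 beside 0.00. None of the 6 calls held without each array in turn: without H3, 1 of them was left, and without H2 or L4, 2 were left. Without H4 or L2, 3 members were called. Without H1, which stood apart from its group on the second component, 10 members were called higher, those 6 among them.

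**Figure D2:**
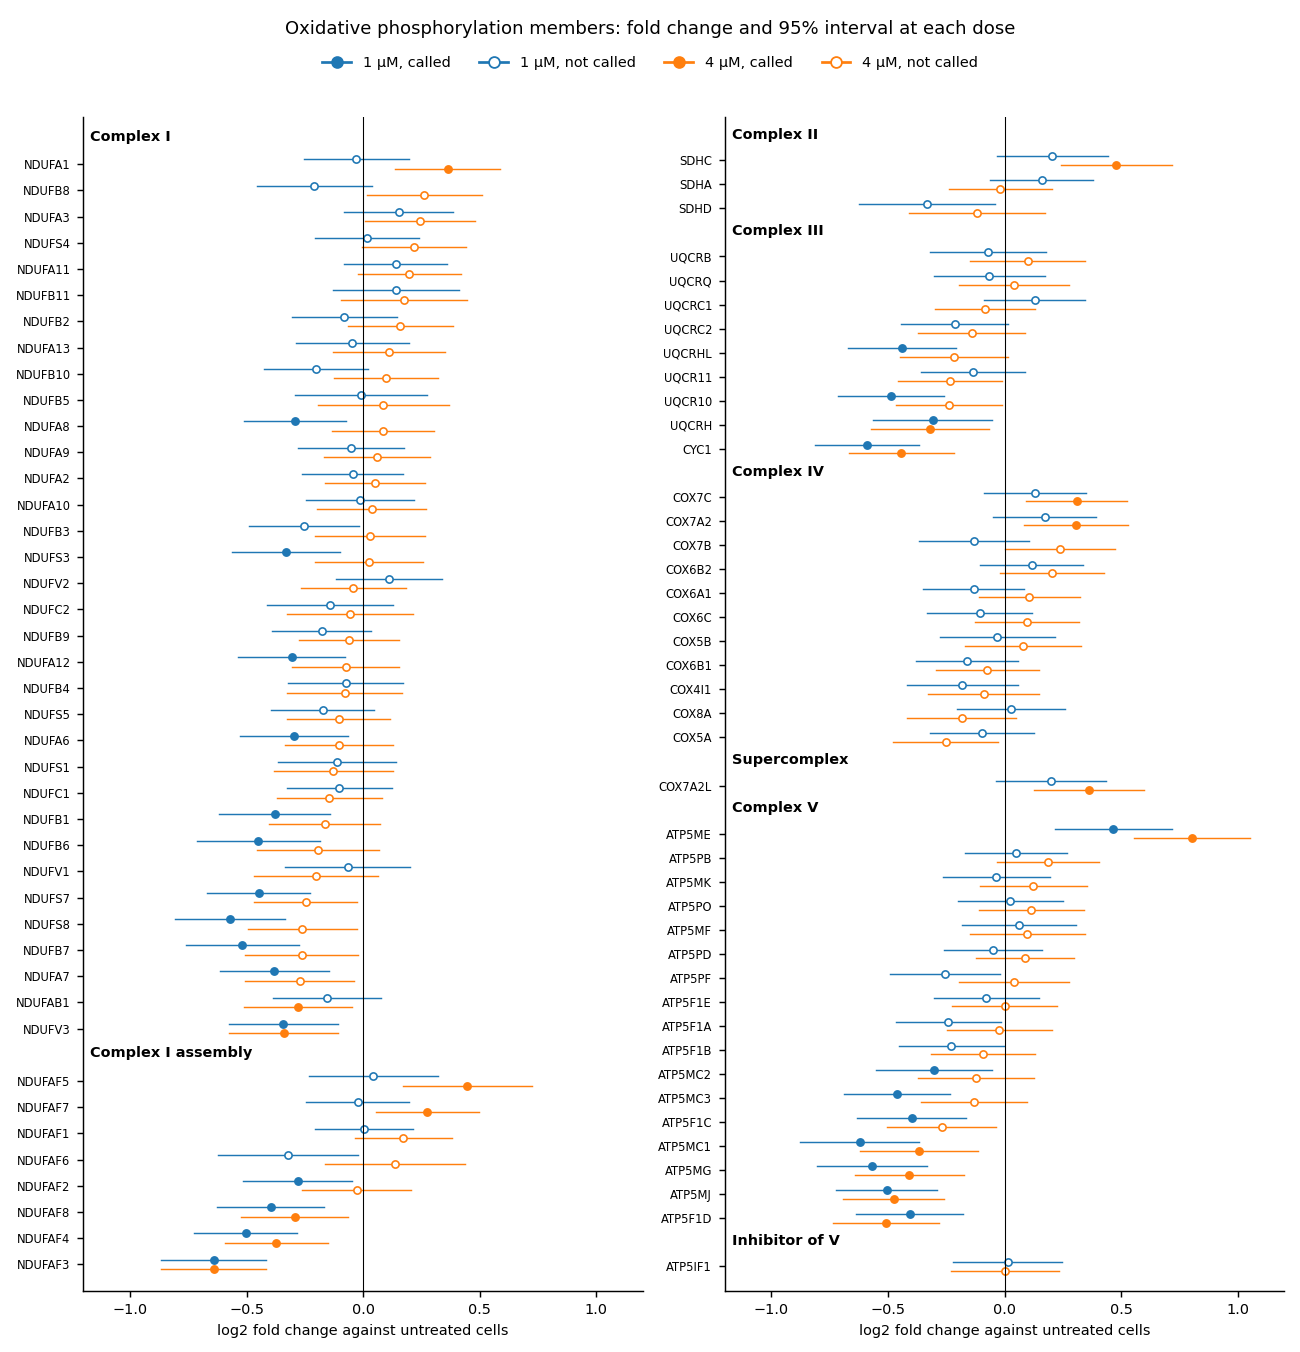
Log2 fold change against untreated cells of every tested member at 1 µM (blue) and 4 µM (orange), with 95% intervals; filled points were called at a q under 0.05. Complexes I, III and V hold most of the lower calls at 1 µM, and ATP5ME stands out as higher at both doses.

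The promoters of 4 members are shown because these members carry the changes in each direction: ATP5ME and NDUFA1 were higher at 4 µM, and ATP5MC1 and ATP5MJ lower at both doses. They were chosen after their values were seen. Each is the 250 bases before the gene's start in the RefSeq promoter table for GRCh38.p14, on the gene's own strand, and capitals mark matches to the NRF1 motif (GCGC, any 2 bases, GCGC), the ETS motif of GABPA CCGGAAG, the YY1 motif ATGGCG or the E-box CANNTG on either strand. ATP5ME lies at chr4:674277-674526 on the minus strand, NDUFA1 at chrX:119871582-119871831 on the plus strand, ATP5MC1 at chr17:48892537-48892786 on the plus strand and ATP5MJ at chr14:103921530-103921779 on the minus strand.
ATP5ME: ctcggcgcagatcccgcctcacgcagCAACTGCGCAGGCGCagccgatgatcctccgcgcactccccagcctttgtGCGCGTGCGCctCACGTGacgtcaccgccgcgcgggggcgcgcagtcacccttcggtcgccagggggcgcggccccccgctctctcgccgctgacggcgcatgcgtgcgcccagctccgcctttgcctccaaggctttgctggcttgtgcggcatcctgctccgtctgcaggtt
NDUFA1: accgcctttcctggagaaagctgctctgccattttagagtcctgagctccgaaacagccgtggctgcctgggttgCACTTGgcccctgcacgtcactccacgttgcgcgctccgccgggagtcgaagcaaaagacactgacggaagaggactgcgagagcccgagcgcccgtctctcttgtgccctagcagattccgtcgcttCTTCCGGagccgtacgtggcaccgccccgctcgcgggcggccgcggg
ATP5MC1: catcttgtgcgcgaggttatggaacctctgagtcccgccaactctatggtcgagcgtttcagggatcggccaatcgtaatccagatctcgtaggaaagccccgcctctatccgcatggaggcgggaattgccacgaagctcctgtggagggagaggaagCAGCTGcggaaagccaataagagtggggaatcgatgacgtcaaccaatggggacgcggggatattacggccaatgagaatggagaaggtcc
ATP5MJ: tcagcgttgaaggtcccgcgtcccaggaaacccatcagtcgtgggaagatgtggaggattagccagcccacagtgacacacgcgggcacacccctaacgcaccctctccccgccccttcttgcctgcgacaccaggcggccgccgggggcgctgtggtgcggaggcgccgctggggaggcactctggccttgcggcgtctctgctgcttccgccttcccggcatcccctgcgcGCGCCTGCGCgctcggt
The window of ATP5ME held 2 NRF1 matches and 2 E-boxes, the first of each overlapping. That of NDUFA1 held 1 ETS match and 1 E-box, that of ATP5MC1 held 1 E-box and that of ATP5MJ held 1 NRF1 match. Of the members, 76 had an entry in the table, with 94 windows. The NRF1 motif was in 18.1% of these windows and in 7.16% of all 35116 windows of 27305 genes, and the ETS motif in 21.3% and 8.52%. The YY1 motif was in 11.7% of member windows and 6.50% of all windows. The E-box CANNTG, the general form of the element that E47 binds, was in 58.5% and 61.8%. Of its forms, CAGCTG was in 12.8% of member windows and 14.0% of all, and CAGGTG in 17.0% and 17.5%. Among members called lower at 1 µM (22 genes, 29 windows) the E-box was in 72.4% of windows. It was in 78.6% for those lower at 4 µM (9 genes, 14 windows) and in 66.7% for those higher at 4 µM (7 genes, 9 windows). In the same order of sets, CAGCTG was in 20.7%, 14.3% and 0.0% of windows and CAGGTG in 24.1%, 21.4% and 11.1%. The NRF1 motif was in 10.3%, 7.14% and 22.2%, the ETS motif in 17.2%, 21.4% and 11.1%, and the YY1 motif in 17.2%, 0.0% and 11.1%. Over all tested members (70 genes, 86 windows) the E-box was in 54.7% of windows, CAGCTG in 11.6% and CAGGTG in 15.1%. There the NRF1 motif was in 17.4%, the ETS motif in 23.3% and the YY1 motif in 12.8%. NDUFAF3 and NDUFAF8 each gave several windows to both lower sets. Windows of 1 gene can overlap, and these shares were not tested. The median GC content was 60.4% in member windows and 58.0% in all. A match is a description of the letters and not a site shown to be bound.

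Complex I, the NADH dehydrogenase and the largest complex of the chain, had 11 of 34 tested subunits (32.4%) lower at 1 µM and none higher. Over all features 20.9% were lower and 19.4% higher at that dose. At 4 µM, 2 (5.88%) were lower (NDUFV3 and NDUFAB1) and 1 (2.94%) was higher (NDUFA1), beside 20.9% and 21.2% of all features. Its median log2 fold change was -0.15 at 1 µM and -0.05 at 4 µM. The core subunits split by arm: all 3 of the tested core subunits of the quinone-binding arm, NDUFS3, NDUFS7 and NDUFS8, were lower at 1 µM, while none of the 3 of the NADH-oxidizing arm (NDUFS1, NDUFV1 and NDUFV2) was called, with log2 fold changes between -0.11 and 0.11. The arms were not tested against each other. NDUFS8, which holds iron-sulfur clusters of that arm, had log2 intensities of 13.94, 13.81, 14.04 and 13.96 in untreated cells, 13.44, 13.58, 13.09 and 13.35 at 1 µM, and 13.56, 13.65, 13.91 and 13.58 at 4 µM. All 1 µM arrays lay below all untreated arrays, and the 4 µM arrays overlapped both. The log2 fold change was -0.57 ± 0.12 (q = 0.000126) at 1 µM and -0.26 ± 0.12 (q = 0.0690) at 4 µM, the 4 µM value being called without H3 (q = 0.0274) and in 2 other settings. NDUFS7, which holds the last cluster before ubiquinone, was lower by -0.45 ± 0.11 (q = 0.00110) at 1 µM, and NDUFS3 by -0.33 ± 0.11 (q = 0.0183); NDUFS3 was not called without U1, U3 or L1 (q between 0.0523 and 0.0743).

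Among the accessory subunits of complex I, which surround the core and stabilise it, 8 of 28 (28.6%) were lower at 1 µM, beside 20.9% of all features. NDUFB7, a subunit on the intermembrane-space side of the membrane arm, had 11.80, 12.13, 11.96 and 12.23 in untreated cells, 11.40, 11.46, 11.78 and 11.42 at 1 µM, and 11.59, 11.67, 11.93 and 11.87 at 4 µM. No 1 µM array reached the lowest untreated array, and the 4 µM arrays overlapped both groups. It was lower at 1 µM (-0.52 ± 0.12, q = 0.000581) and not called at 4 µM (-0.26 ± 0.12, q = 0.0742), except without U1 or H3 (q = 0.031 and 0.048). NDUFB6, NDUFA7, NDUFB1, NDUFA12, NDUFA6, NDUFA8 and NDUFV3 were the others, with log2 fold changes between -0.45 and -0.29. The calls of 5 of them, NDUFV3 among them, depended on single arrays. NDUFA12 was not called without U1, U2, U3 or L1 (q between 0.0534 and 0.145), and NDUFA6 without U3, U4, L1 or L3 (0.0627 to 0.129). NDUFA8 was not called without U1, U2, U3 or L2 (q between 0.0626 and 0.107), and NDUFB1 without L1 (0.0563). NDUFV3, a small subunit of the NADH-oxidizing arm, read 8.25, 8.40, 8.25 and 8.64 in untreated cells, 8.02, 7.97, 7.93 and 8.25 at 1 µM, and 8.20, 7.97, 8.11 and 7.90 at 4 µM. All arrays of both doses lay below every untreated array, by a small margin for L4, on the brightest probe. Its log2 fold changes were -0.34 ± 0.11 (q = 0.0159) at 1 µM and -0.34 ± 0.11 (q = 0.0155) at 4 µM; the first was not called without U4 or L3, and the second without U4 or H4 (q between 0.0520 and 0.0825 over these).

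NDUFAB1, the mitochondrial acyl carrier protein, had 12.88, 12.71, 13.08 and 13.13 in untreated cells, 12.77, 12.86, 12.77 and 12.77 at 1 µM, and 12.52, 12.56, 12.72 and 12.88 at 4 µM. Its 4 µM arrays overlapped the untreated arrays, and the call at 4 µM (-0.28 ± 0.11, q = 0.0470) was lost without any of 7 arrays, which were U1, U3, U4, L3, H1, H2 and H3 (q between 0.0514 and 0.154). NDUFA1, a short membrane subunit needed for assembly of the complex, went the other way, with 13.86, 14.12, 13.85 and 13.81 in untreated cells, 13.86, 13.83, 14.11 and 13.72 at 1 µM, and 14.29, 14.28, 14.33 and 14.19 at 4 µM. Every 4 µM array lay above every array of the other groups. NDUFA1 was higher at 4 µM than in untreated cells (0.36 ± 0.11, q = 0.00762) and than at 1 µM (0.39 ± 0.11, q = 0.0193), and 1 µM and untreated cells overlapped fully (-0.03 ± 0.11, q = 0.861). The difference between doses was not called without H2, H3 or L4 (q between 0.0521 and 0.0793). NDUFB8, a membrane-arm subunit often used as a marker of assembled complex I, had the largest difference between doses among the members, with 13.45, 13.31, 13.36 and 13.30 in untreated cells, 13.29, 12.75, 13.39 and 13.16 at 1 µM, and 13.79, 13.63, 13.62 and 13.43 at 4 µM. All 4 µM arrays lay above all 1 µM arrays, with L2 the lowest. The difference was 0.47 ± 0.12 (q = 0.00992), and without L2 its q was 0.0697; neither dose was called against untreated cells (-0.21 ± 0.12, q = 0.177 at 1 µM and 0.26 ± 0.12, q = 0.0824 at 4 µM). NDUFA8 and NDUFS3 were lower at 1 µM and not called at 4 µM, and differed between the doses by 0.38 ± 0.11 (q = 0.0212) and 0.36 ± 0.11 (q = 0.0404). NDUFA8 was not called between doses without L2, H2 or H3 (q between 0.0539 and 0.0855), and NDUFS3 without any array of either dose other than H1 (0.0511 to 0.145). For the subunits of complex I not called, the 95% intervals of the log2 fold change ran from -0.49 to 0.41 at 1 µM and from -0.51 to 0.51 at 4 µM, so for these subunits changes within that range are not excluded.

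**Figure D3:**
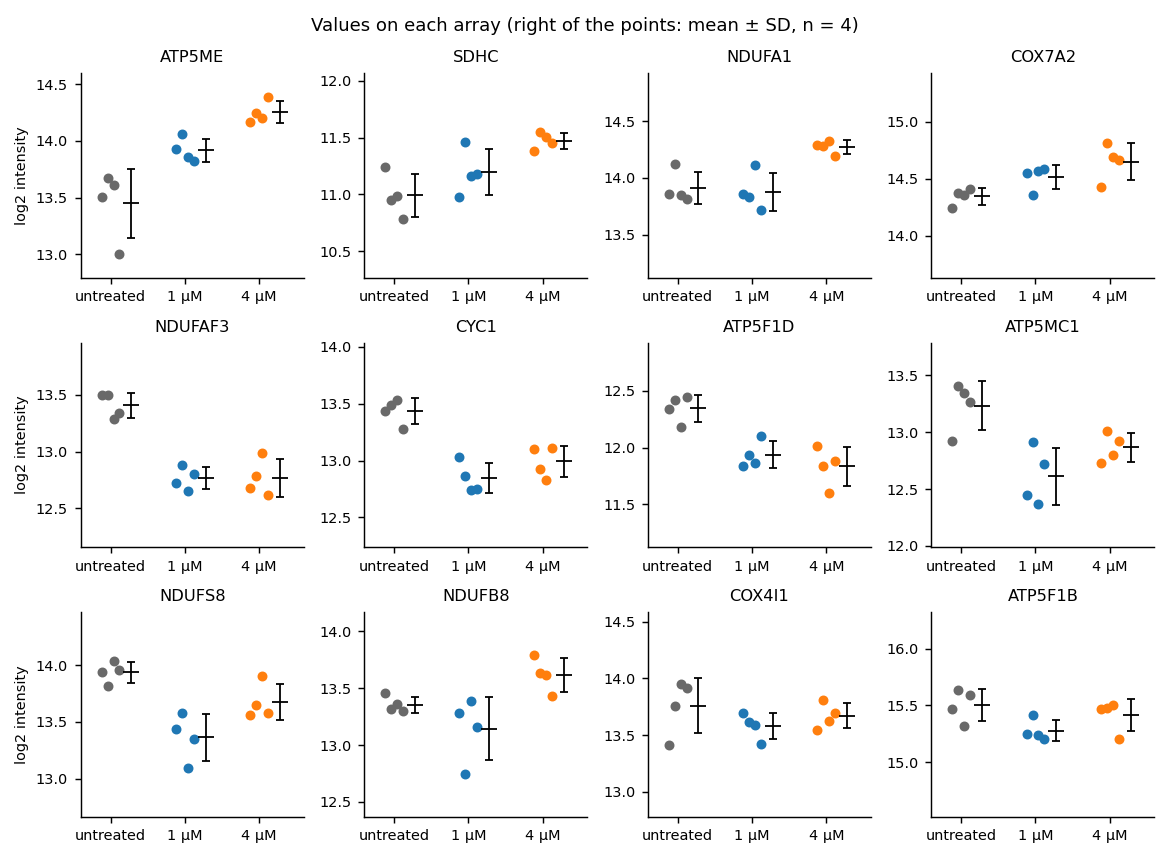
Log2 intensity of 12 members on every array of untreated, 1 µM and 4 µM cells, with the mean and SD of 4 arrays beside the points; each panel spans the same range of log2 units. ATP5ME, SDHC and NDUFA1 were highest at 4 µM, NDUFAF3, CYC1 and ATP5F1D were lower at both doses, and COX4I1 and ATP5F1B overlapped between groups.

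The complex I assembly factors, which are not part of the finished enzyme, held calls in both directions at 4 µM. At 1 µM 4 of 8 were lower and none higher, and at 4 µM 3 were lower and 2 higher. Beside these counts, 20.9% of all features were lower at each dose, and 19.4% were higher at 1 µM and 21.2% at 4 µM. The share of assembly factors higher at 4 µM was thus near that of all features. NDUFAF3, which acts with NDUFAF4 early in building the quinone-binding arm, had 13.50, 13.50, 13.29 and 13.34 in untreated cells, 12.73, 12.88, 12.65 and 12.80 at 1 µM, and 12.68, 12.78, 12.99 and 12.62 at 4 µM. Every treated array lay below every untreated array, and the doses overlapped fully. The log2 fold change was -0.64 ± 0.11 (q = 1.22e-05) at 1 µM and -0.64 ± 0.11 (q = 1.05e-05) at 4 µM, the lowest on any brightest probe at either dose. NDUFAF4 had 10.37, 10.45, 10.25 and 10.31 in untreated cells, 9.93, 9.77, 9.93 and 9.72 at 1 µM, and 10.12, 9.84, 10.06 and 9.87 at 4 µM. Again no treated array reached the lowest untreated array, with -0.50 ± 0.11 (q = 0.000262) at 1 µM and -0.37 ± 0.11 (q = 0.00529) at 4 µM. The calls of both genes held without each array in turn.

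NDUFAF8, which stabilises NDUFAF5, had 7.93, 7.98, 8.22 and 7.88 in untreated cells, 7.56, 7.72, 7.54 and 7.61 at 1 µM, and 7.98, 7.59, 7.69 and 7.59 at 4 µM. The 1 µM arrays all lay below the untreated arrays, while H1 lay among them. NDUFAF8 was lower at 1 µM (-0.40 ± 0.11, q = 0.00470) and at 4 µM (-0.29 ± 0.11, q = 0.0353); the 4 µM call was lost without U2, U3, H2, H3 or H4 (q between 0.0544 and 0.149). NDUFAF5, which hydroxylates an arginine of NDUFS7, read 9.92, 10.06, 10.06 and 9.84 in untreated cells, 10.38, 9.997, 10.17 and 9.51 at 1 µM, and 10.22, 10.53, 10.62 and 10.30 at 4 µM. The 4 µM arrays all lay above the untreated arrays, and the 1 µM arrays spread over both. It was higher at 4 µM (0.45 ± 0.14, q = 0.00726) and not called at 1 µM (0.04 ± 0.14, q = 0.835). NDUFAF7, a methyltransferase that modifies another core subunit, had 10.17, 10.16, 10.0 and 10.01 in untreated cells, 10.09, 9.99, 10.11 and 10.06 at 1 µM, and 10.14, 10.48, 10.33 and 10.50 at 4 µM. It was higher at 4 µM (0.28 ± 0.11, q = 0.0396), with H1 among the untreated arrays, and this was not called without U3, U4, H2, H3 or H4 (q between 0.0563 and 0.13) or in 5 other settings, and its other 2 probes were not called. NDUFAF2, a late-acting factor, was lower at 1 µM by the smallest margin (-0.28 ± 0.11, q = 0.0493), and leaving out any of 9 arrays ended the call (q between 0.0507 and 0.195): all but U4, L1 and H1. NDUFAF6 was higher at 4 µM than at 1 µM (0.46 ± 0.15, q = 0.0427) with overlapping arrays; the call was lost without L3, L4, H2, H3 or H4 (q between 0.0526 and 0.239).

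Complex II, succinate dehydrogenase, which also works in the tricarboxylic acid cycle, had 3 tested members; SDHB was not analysed here. SDHC, a membrane anchor that binds ubiquinone, had 11.25, 10.95, 10.98 and 10.79 in untreated cells, 10.98, 11.46, 11.16 and 11.18 at 1 µM, and 11.38, 11.55, 11.50 and 11.46 at 4 µM. Every 4 µM array lay above every untreated array, and the 1 µM arrays overlapped both groups. SDHC was higher at 4 µM (0.48 ± 0.12, q = 0.000988) and not called at 1 µM (0.20 ± 0.12, q = 0.171). SDHD, the other anchor, had 11.40, 11.37, 11.79 and 11.40 in untreated cells, 11.44, 10.75, 11.40 and 11.05 at 1 µM, and 10.94, 11.46, 11.64 and 11.45 at 4 µM. The groups overlapped, with no call at 4 µM (-0.12 ± 0.14, q = 0.556) or 1 µM (-0.33 ± 0.14, q = 0.0649); at 1 µM it was called lower without L1, L3 or H1 (q between 0.0260 and 0.0432). SDHA, the flavoprotein that oxidises succinate, read 10.97, 10.94, 10.96 and 10.66 in untreated cells, 11.03, 11.23, 10.95 and 10.97 at 1 µM, and 10.86, 10.89, 10.84 and 10.88 at 4 µM. It was called at neither dose on its brightest probe, with 0.16 ± 0.11 (q = 0.259) at 1 µM and -0.02 ± 0.11 (q = 0.918) at 4 µM, while a second probe was higher at 1 µM (0.36, q = 0.0121). On the brightest probe the 95% intervals ran from -0.06 to 0.38 at 1 µM and from -0.24 to 0.20 at 4 µM.

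In complex III, 4 of 9 tested members (44.4%) were lower at 1 µM and 2 (22.2%) at 4 µM, with none higher. Over all features 20.9% were lower at each dose, so the share at 4 µM was near that of all features. UQCRFS1 was not analysed here. CYC1, the cytochrome c1 that delivers electrons to cytochrome c, had 13.43, 13.49, 13.54 and 13.28 in untreated cells, 13.03, 12.86, 12.74 and 12.75 at 1 µM, and 13.10, 12.92, 12.83 and 13.11 at 4 µM. Every treated array lay below every untreated array. Its log2 fold change was -0.59 ± 0.11 (q = 4.34e-05) at 1 µM and -0.44 ± 0.11 (q = 0.00125) at 4 µM, and the difference between doses (0.15 ± 0.11, q = 0.479) was not called. UQCR10, a small subunit of the complex, had 10.27, 9.97, 9.80 and 10.04 in untreated cells, 9.46, 9.46, 9.63 and 9.58 at 1 µM, and 9.89, 9.73, 9.67 and 9.83 at 4 µM. The 1 µM arrays lay below the untreated arrays and the 4 µM arrays lay between and overlapped the untreated ones. It was lower at 1 µM (-0.49 ± 0.11, q = 0.000555); at 4 µM (-0.24 ± 0.11, q = 0.0844) it was called without U3 (q = 0.0327) and with array weights (q = 0.0439).

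UQCRH, the hinge protein that holds cytochrome c1 in place, read 14.04, 14.30, 14.19 and 14.59 in untreated cells, 13.71, 14.29, 13.88 and 14.003 at 1 µM, and 13.86, 14.02, 13.87 and 14.09 at 4 µM. Its groups overlapped at both doses. UQCRH was lower at 1 µM (-0.31 ± 0.13, q = 0.0473) and 4 µM (-0.32 ± 0.13, q = 0.0382), close to the threshold. Leaving out any of 8 arrays ended the 1 µM call, namely U2, U4, L1, L3, L4, H2, H3 and H4 (q between 0.0503 and 0.213). The 4 µM call ended without U2, U4, H1, H2 or H3 (0.0519 to 0.185). These values are from the brightest probe. A second probe of UQCRH, above background on all 12 arrays, was lower at 1 µM (-0.62, limma q = 7.65e-05 over all detected probes). At 4 µM that probe was not called (-0.28, q = 0.0578). UQCRHL, lower at 1 µM (-0.44 ± 0.11, q = 0.00207), is a near-identical copy of UQCRH, and the probes may not separate the pair, so neither value can be assigned to 1 gene with certainty. The core proteins UQCRC1 and UQCRC2, with UQCRB, UQCRQ and UQCR11, were called at neither dose, with 95% intervals over the members not called from -0.44 to 0.34 at 1 µM.

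Complex IV, cytochrome c oxidase, had no member called at 1 µM among 11 tested, and at 4 µM 2 (18.2%) were higher and none lower. Over all features 21.2% were higher and 20.9% lower at 4 µM. Its median log2 fold change was -0.10 at 1 µM and 0.10 at 4 µM. COX7A2, the widely expressed form of subunit VIIa, had 14.24, 14.37, 14.36 and 14.41 in untreated cells, 14.55, 14.36, 14.57 and 14.59 at 1 µM, and 14.43, 14.82, 14.69 and 14.66 at 4 µM. All 4 µM arrays lay above the untreated arrays, by a small margin for H1. COX7A2 was higher at 4 µM (0.31 ± 0.11, q = 0.0227) and not called at 1 µM (0.17 ± 0.11, q = 0.222); without U1, H2 or H3 the 4 µM call was lost (q between 0.0526 and 0.0968). COX7C, another small subunit, had 14.61, 14.54, 14.50 and 14.51 in untreated cells, 14.53, 14.68, 14.83 and 14.65 at 1 µM, and 14.70, 14.98, 14.91 and 14.82 at 4 µM. Its 4 µM arrays lay above all untreated arrays. It was higher at 4 µM (0.31 ± 0.11, q = 0.0188), with a q of 0.0729 without H2, and not called at 1 µM (0.13 ± 0.11, q = 0.359). COX7A2L, which takes part in joining complexes III and IV into supercomplexes, had 12.73, 12.57, 12.75 and 12.71 in untreated cells, 12.66, 12.78, 13.02 and 13.11 at 1 µM, and 13.26, 12.996, 12.87 and 13.09 at 4 µM. Every 4 µM array lay above every untreated array (0.36 ± 0.12, q = 0.0108), and without H1 the q was 0.0539.

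COX7B differed between doses, with 12.33, 12.41, 12.41 and 12.34 in untreated cells, 12.13, 12.27, 12.48 and 12.07 at 1 µM, and 12.47, 12.47, 12.57 and 12.91 at 4 µM. Only L3 reached into the range of the 4 µM arrays. It was higher at 4 µM than at 1 µM (0.37 ± 0.12, q = 0.0394), and the call was lost without L1, L2, L4, H3 or H4 (q between 0.0627 and 0.209). COX4I1, COX6A1 and COX6B1 were called at neither dose. COX4I1, which regulates the oxidase by binding ATP, had 13.42, 13.76, 13.95 and 13.91 in untreated cells, 13.69, 13.61, 13.59 and 13.42 at 1 µM, and 13.55, 13.81, 13.63 and 13.69 at 4 µM. Its groups overlapped, with -0.18 ± 0.12 (q = 0.235) at 1 µM and -0.09 ± 0.12 (q = 0.585) at 4 µM, and it was called lower at 1 µM without U1 alone (q = 0.0480). COX6A1 had 12.46, 12.49, 12.51 and 12.56 in untreated cells, 12.35, 12.37, 12.49 and 12.27 at 1 µM, and 12.55, 12.73, 12.42 and 12.74 at 4 µM, and COX6B1 had 14.11, 13.997, 14.01 and 14.31 in untreated cells, 13.99, 13.88, 14.08 and 13.84 at 1 µM, and 14.01, 14.12, 14.05 and 13.94 at 4 µM. Both overlapped between untreated and treated cells: COX6A1 gave -0.13 ± 0.11 (q = 0.353) at 1 µM and 0.11 ± 0.11 (q = 0.463) at 4 µM, and COX6B1 gave -0.16 ± 0.11 (q = 0.253) at 1 µM and -0.07 ± 0.11 (q = 0.626) at 4 µM. For the complex IV members not called, the 95% intervals ran from -0.42 to 0.39 at 1 µM and from -0.48 to 0.47 at 4 µM.

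Of the tissue-restricted isoforms of complex IV, COX6B2 was the one detected. COX4I2, COX6A2, COX7A1, COX7B2 and COX8C were not detected: their intensities ran from 67.5 for COX7A1 to 129 for COX6A2, with the limit of background at 128. COX6B2, a form described in testis, had a brightest probe at 6.62, 6.80, 6.62 and 6.72 in untreated cells, 6.73, 6.88, 6.94 and 6.66 at 1 µM, and 7.05, 6.74, 6.96 and 6.81 at 4 µM on the log2 scale, above background on 2 arrays of each dose and on no untreated array, and it was not called (q = 0.436 at 1 µM and 0.142 at 4 µM). A second, dimmer probe of COX6B2 had a mean intensity of 92.5 on untreated arrays, 118 on 1 µM arrays and 168 on 4 µM arrays. It was above background on no untreated array, 2 arrays at 1 µM and all 4 at 4 µM, so it passed the filter through treated arrays alone. Its calls are therefore only descriptive. They were higher at 1 µM (limma q = 0.00759), at 4 µM (q = 6.47e-08) and at 4 µM against 1 µM (q = 0.00320). Its level at 4 µM was at least 1.34-fold higher than in untreated cells, counting an untreated array as no dimmer than the dimmest probe above background on it. The same bound at 1 µM was 0.91-fold, so no rise is shown at that dose. With the mean of both probes the gene was called higher at both doses (q = 0.0262 at 1 µM and 1.67e-05 at 4 µM), with the same limit. NDUFA5, NDUFS6 and NDUFB2-AS1 were the other members not detected. NDUFA4, now placed in complex IV and named COXFA4 in the current annotation, falls outside the symbol rule; it was called at neither dose, with log2 fold changes of 0.09 at 1 µM and 0.21 at 4 µM, and NDUFA4L2 was not detected.

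Complex V, the ATP synthase, held lower calls at both doses and the largest rise on any member's brightest probe. At 1 µM 7 of 17 members (41.2%) were lower and 1 (5.88%) was higher, beside 20.9% and 19.4% of all features. At 4 µM 4 (23.5%) were lower and 1 (5.88%) was higher, beside 20.9% and 21.2% of all features. The share lower at 4 µM was thus near that of all features. The c-ring, the rotor in the membrane that turns as protons pass, was lower throughout at 1 µM: ATP5MC1, ATP5MC2 and ATP5MC3, which encode the same mature protein, were all called. ATP5MC1 had 12.92, 13.40, 13.34 and 13.26 in untreated cells, 12.44, 12.91, 12.37 and 12.72 at 1 µM, and 12.73, 13.01, 12.80 and 12.92 at 4 µM. All 1 µM arrays lay below the lowest untreated array, and H2 lay within the untreated range. It was lower at 1 µM (-0.62 ± 0.12, q = 0.000113) and at 4 µM (-0.37 ± 0.12, q = 0.0167), the second call being lost without U2, U3 or H1 (q between 0.0523 and 0.0675). ATP5MC3 had 8.39, 7.99, 8.22 and 8.0 in untreated cells, 7.54, 7.76, 7.80 and 7.66 at 1 µM, and 7.93, 7.999, 8.003 and 8.15 at 4 µM, and was lower at 1 µM (-0.46 ± 0.11, q = 0.00108) but not called at 4 µM (-0.13 ± 0.11, q = 0.381). No 1 µM array reached the lowest untreated array. ATP5MC2 had 13.26, 13.21, 13.36 and 13.29 in untreated cells, 12.81, 13.29, 13.18 and 12.62 at 1 µM, and 13.22, 13.08, 13.11 and 13.21 at 4 µM. Its L2 and L3 were close to the untreated arrays, and its call at 1 µM (-0.30 ± 0.12, q = 0.0458) was lost without any of 9 arrays, all but L2, L3 and H1 (q between 0.0510 and 0.245); at 4 µM it was not called (-0.12 ± 0.12, q = 0.455).

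The catalytic F1 head of complex V differed by subunit. ATP5F1D, the delta subunit of the central stalk, had 12.34, 12.42, 12.18 and 12.44 in untreated cells, 11.84, 11.94, 11.87 and 12.11 at 1 µM, and 12.02, 11.84, 11.60 and 11.88 at 4 µM. Every treated array lay below every untreated array, with -0.41 ± 0.11 (q = 0.00348) at 1 µM and -0.51 ± 0.11 (q = 0.000315) at 4 µM. ATP5F1C, the gamma subunit of that stalk, was lower at 1 µM (-0.40 ± 0.12, q = 0.00545) and not called at 4 µM (-0.27 ± 0.12, q = 0.0589). The alpha subunit ATP5F1A had 13.92, 14.23, 13.90 and 14.12 in untreated cells, 13.83, 13.72, 13.73 and 13.92 at 1 µM, and 14.06, 13.83, 14.13 and 14.06 at 4 µM. The beta subunit ATP5F1B, which carries the catalytic sites, had 15.47, 15.64, 15.32 and 15.60 in untreated cells, 15.25, 15.42, 15.24 and 15.21 at 1 µM, and 15.47, 15.48, 15.50 and 15.20 at 4 µM. Neither was called on its brightest probe: ATP5F1A gave -0.24 ± 0.11 (q = 0.0825) at 1 µM and -0.02 ± 0.11 (q = 0.897) at 4 µM, and ATP5F1B gave -0.23 ± 0.11 (q = 0.100) at 1 µM and -0.09 ± 0.11 (q = 0.541) at 4 µM. On brightest probes, none of the 4 subunits of the peripheral stalk, the arm that keeps the head from turning, was called at either dose; their log2 fold changes lay between -0.26 and 0.05 at 1 µM and between 0.04 and 0.19 at 4 µM.

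Of the 5 small subunits of the membrane part, 2 (40.0%) were lower and 1 (20.0%) higher at each dose. Over all features 20.9% were lower at each dose, and 19.4% were higher at 1 µM and 21.2% at 4 µM. The share higher was thus near that of all features. ATP5ME, the e subunit, which with the g subunit holds ATP synthase dimers together, had 13.51, 13.68, 13.61 and 13.004 in untreated cells, 13.93, 14.06, 13.86 and 13.82 at 1 µM, and 14.17, 14.25, 14.21 and 14.39 at 4 µM. The groups did not overlap, U4 lay far below its own group, and every 4 µM array was above every 1 µM array. ATP5ME was higher at 1 µM (0.47 ± 0.12, q = 0.00226) and at 4 µM (0.80 ± 0.12, q = 1.43e-06, 1.75-fold), the largest fold change of any member on its brightest probe. The low value of U4 enlarges both fold changes. Over all settings and arrays left out, the log2 fold change ran from 0.32 to 0.87 at 1 µM and from 0.66 to 1.26 at 4 µM. Both calls held without each array in turn. Without U4 the difference between doses (0.34 ± 0.12, q = 0.0784) was called too (q = 0.0349). With all arrays kept, that difference was also called in 4 other settings (lowest q = 0.0164). Of the 3 probes of ATP5ME, 1 was called higher at 4 µM than at 1 µM (0.42, limma q = 0.0171 over all detected probes). The promoter of ATP5ME shown above held the NRF1 and E-box matches. ATP5MG, the g subunit itself, moved the other way, with 14.68, 14.85, 14.98 and 14.77 in untreated cells, 13.99, 14.24, 14.32 and 14.46 at 1 µM, and 14.35, 14.29, 14.62 and 14.38 at 4 µM. Every treated array lay below every untreated array, with -0.57 ± 0.12 (q = 0.000131) at 1 µM and -0.41 ± 0.12 (q = 0.00407) at 4 µM. ATP5MJ, a small proteolipid of the same part, had 9.71, 10.02, 9.89 and 9.82 in untreated cells, 9.31, 9.40, 9.45 and 9.25 at 1 µM, and 9.26, 9.45, 9.38 and 9.44 at 4 µM. Its treated arrays were likewise all below the untreated arrays, with -0.50 ± 0.11 (q = 0.000218) at 1 µM and -0.48 ± 0.11 (q = 0.000395) at 4 µM. ATP5MF and ATP5MK were called at neither dose. ATP5IF1, the protein that blocks ATP hydrolysis by the enzyme, was not called on its brightest probe (0.01 ± 0.11, q = 0.941 at 1 µM and 0.00 ± 0.11, q = 0.993 at 4 µM).

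**Figure D4:**
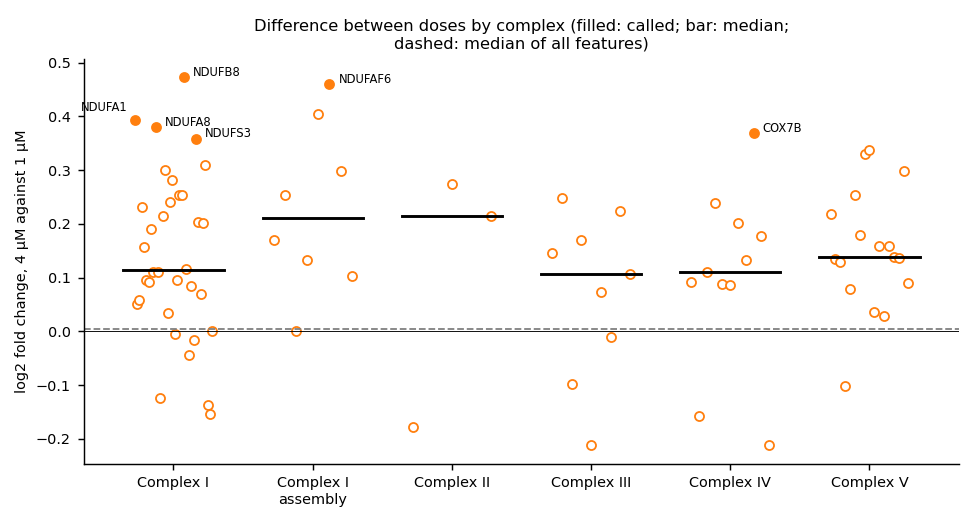
Log2 fold change at 4 µM against 1 µM of the members by complex; filled points were called, thick bars are group medians and the dashed line is the median of all features. Of the 84 members, 70 lay above 0, among them 16 of 17 in complex V and all 8 assembly factors, and 6 were called.

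Split by complex, the values at 4 µM lay above those at 1 µM for 28 of 34 members of complex I, 2 of 3 of complex II, 6 of 9 of complex III, 9 of 11 of complex IV and 16 of 17 of complex V, and for all 8 assembly factors. The median differences lay between 0.11 (complexes I, III and IV) and 0.21 (complex II and the assembly factors). The 3 core subunits of the NADH-oxidizing arm of complex I all had differences below 0, between -0.15 and -0.02.

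More than 1 probe was detected for 25 members (q is here over all detected probes), and no member had probes called in opposite directions. ATP5ME had 3, all called higher at both doses: the log2 fold changes lay between 0.47 and 1.54 at 1 µM and between 0.80 and 1.95 at 4 µM, the dimmest probe being above background on 9 of 12 arrays. The probes of ATP5IF1 disagreed. Its brightest was called at neither dose, while a second, also above background on every array, was lower at 1 µM (-0.84, q = 1.18e-07) and 4 µM (-0.64, q = 1.17e-05). For NDUFA10 the second probe was lower at 1 µM (-0.33, q = 0.0292) and 4 µM (-0.32, q = 0.0348) and the brightest was not called. The second probe of SDHC read 0.14 at 4 µM (q = 0.370), beside 0.48 for the brightest, so the rise of SDHC rests on 1 probe. That of NDUFAF7 does too: its other 2 probes read 0.02 and -0.02 at 4 µM and were not called, and with the mean of its probes the change was 0.09 (q = 0.477). The second probe of NDUFV3, above background on 5 arrays, read -0.12 (q = 0.437) at 1 µM and 0.14 (q = 0.351) at 4 µM, and with the mean of its probes the 4 µM change was -0.10 (q = 0.422). The second probes of SDHA and ATP5F1A were called at 1 µM where the brightest were not, SDHA higher and ATP5F1A lower (-0.34, q = 0.0140), and so were both genes with the mean of their probes (q = 0.0268 for SDHA and 0.0133 for ATP5F1A). ATP5PB of the peripheral stalk had a second probe lower at 1 µM (-0.28, q = 0.0441), and NDUFB4 had one lower at 4 µM (-0.31, q = 0.0412). The lower calls of ATP5MC2 and NDUFB6 at 1 µM each came from the brightest of 2 probes. Which transcripts each probe reads was not analysed here.

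**Figure D5:**
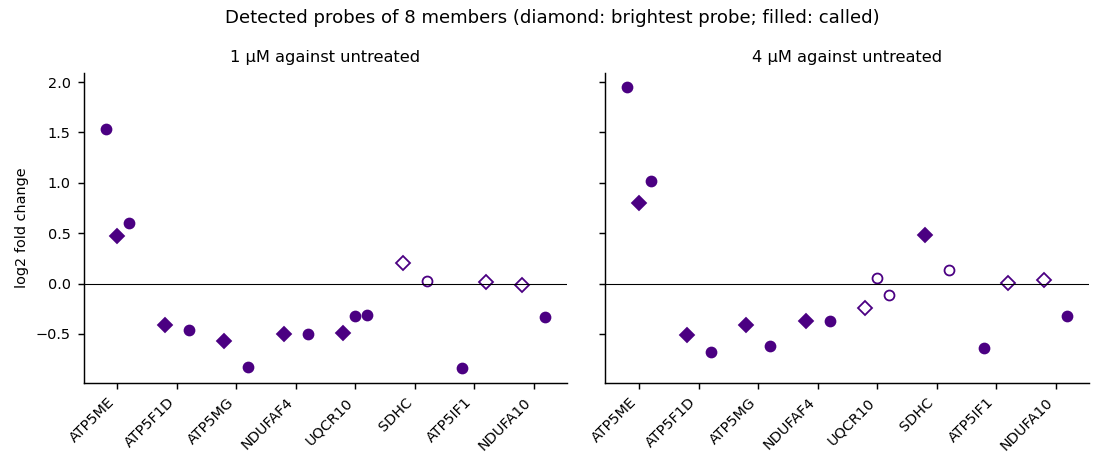
Log2 fold change of each detected probe of 8 members against untreated cells at 1 µM (left) and 4 µM (right); diamonds are the brightest probes and filled points were called. All 3 probes of ATP5ME were higher, and the probes of ATP5IF1 and NDUFA10 disagreed on whether the gene was lower.

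Beyond the members, 46 assembly factors of the chain and cytochrome c were listed, of which 44 were tested; ATP5IF1 is in both sets. At 1 µM 19 were lower and 2 higher, at 4 µM 12 were lower and 4 higher, and between doses 5 were higher at 4 µM, beside 20.9% lower at each dose, 19.4% and 21.2% higher and 4.83% between doses over all features. Their median log2 fold change was -0.22 at 1 µM and -0.09 at 4 µM, beside -0.03 over all features. BCS1L, which inserts the Rieske iron-sulfur protein into complex III, was lower, with log2 fold changes of -1.05 at 1 µM and -0.71 at 4 µM. UQCC3, another complex III assembly factor, had log2 fold changes of -0.94 and -1.23 at those doses, and FOXRED1, a complex I assembly factor, of -0.96 and -0.58. COA3, which acts in complex IV assembly, was higher by 0.41 and 0.55. Cytochrome c itself (CYCS) was called at neither dose, at 0.08 and 0.17.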

How the data were processed

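The series matrix held 1 probe intensity per probe and array; per the submitters' processing notes the authors used GenomeStudio, and the deposited intensities already shared 1 distribution over the arrays (sorted values above the median differed by at most 0.0626%), so no further scaling was applied. No header or label records the steps in more detail. Another deposited table has 24 columns of values and detection p-values whose names fit no sample title, and these were left aside. Arrays were grouped by their sample titles.

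Intensities were corrected with normexp (limma 3.58.1, R 4.3.3) with no separate background column, an added offset of 50, and put on the log2 scale. Background was the mode of all intensities (101.8) plus 1.64 times an SD of 15.8 from its lower side, giving a limit of 127.7; a probe was detected when above it on at least 4 of 12 arrays. Symbols came from the platform annotation, updated through RefSeq: 30113 probes have 1 symbol, 8 several and 17202 none. limma was fitted to all 18454 features over all 12 arrays, with Benjamini-Hochberg adjustment (q in the text) over all of them, after the same code had been tested on simulated data. The number of arrays limits the precision.

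Members and lists were chosen with earlier results of these data known. Named in full were, per complex, up to 4 called members with the largest change at 4 µM and up to 2 at 1 µM, fixed anchors (SDH, CYC1, COX4, COX6A, COX6B and COX7A forms, ATP5MC1 to ATP5MC3, ATP5F1A, ATP5F1B), and up to 3 called members per comparison against their complex's majority. Others were named after their values were seen, where a count was small. Alternatives covered the background correction, scaling, filter, probe choice, model and each array left out. Promoter sequences are RefSeq's, for GRCh38.p14; probe and protein sequences were not used. Lists of other assembly factors, tricarboxylic acid cycle enzymes, regulators of mitochondrial gene expression and cell markers were counted; 13 genes of mitochondrial DNA were listed and are not analysed here.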

Additional observations from a re-analysis of the deposited data

Results flagged for a closer look

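In 7 of the 96 groups of 4 arrays examined for the members named in full, 1 array lay apart from the others by more than Dixon's 95% limit on the gap as a share of the group's range; chance alone marks about 1 in 20 groups. ATP5F1B read 15.20 on H4, below the others at 15.47 to 15.50. COX7A2 read 14.36 on L2, below 14.55 to 14.59. NDUFAB1 read 12.86 on L2, above 12.77 on each of the others, and NDUFB7 read 11.78 on L3, above 11.40 to 11.46. NDUFA1 read 14.12 on U2, above 13.81 to 13.86. SDHA read 10.66 on U4, below 10.94 to 10.97, and SDHD read 11.79 on U3, above 11.37 to 11.40. What sets these arrays apart was not tested. Leaving out any of these arrays did not change the call of its own member against untreated cells.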

How the results depend on the processing

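All 18 calls of members that were made at 1 µM without depending on a single array (17 lower and ATP5ME higher) also held under every alternative background correction, scaling, filter, probe choice and model that was run, as did 6 of the 8 higher and 6 of the 11 lower calls at 4 µM; with arrays left out as well, 3 and 6 held. These settings ended the calls of ATP5MC2, NDUFA12, NDUFA6, NDUFA8, NDUFAF2, NDUFS3 and UQCRH at 1 µM, and of ATP5MC1, NDUFAB1, NDUFAF5, NDUFAF7, NDUFAF8, NDUFV3 and UQCRH at 4 µM, each under at least 1 of them. No named fold change that was called reversed. Counts called lower ran from 20 to 27 at 1 µM and from 8 to 13 at 4 µM, except 16 with arrays centred on their medians. Counts called higher at 1 µM were 1 throughout, except 3 with the mean of all detected probes, and at 4 µM ran from 7 to 9 over settings. Leaving out each array in turn gave 20 to 27 lower and 1 higher at 1 µM, and 8 to 13 lower and 5 to 9 higher at 4 µM. The difference between doses depended most on the setting: beside 6 higher members, 3 were found with a normexp offset of 16, 3 with no filter on dim probes, 1 with plain subtraction of the background, which was none of the 6, and 10 with array weights, and 1 to 10 with an array left out, with none lower in any. The filter setting tests more features; the cause of the others was not tested. With the replicate number as a replicate block, 26 members were lower and 1 higher at 1 µM, 13 lower and 8 higher at 4 µM, and 7 higher between doses. Same-numbered arrays did not deviate together (12 pairs, residual correlations between -0.07 and 0.16; 4 of 12 arrays correlated best with their own number), so the numbers are not taken as pairs. For a member not called, changes within its interval are not excluded, and signals near background understate a change.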

Other observations

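Enzymes of the tricarboxylic acid cycle and of the entry of pyruvate into it, which feeds electrons to complexes I and II, were lower more often than higher. Of 17 tested, 9 were lower and 1 higher at 1 µM, and 8 were lower and 1 higher at 4 µM, beside the 20.9% lower among all features at either dose; their median log2 fold change was -0.30 at 1 µM and -0.26 at 4 µM. PC, pyruvate carboxylase, had log2 fold changes of -0.60 at 1 µM and -0.76 at 4 µM, and DLAT, a subunit of pyruvate dehydrogenase, of -0.67 and -0.50. SUCLG1, a subunit of succinyl-CoA ligase, was lower at 1 µM (-0.72) and higher at 4 µM than at 1 µM (0.46, adjusted p = 0.00748). IDH2, the NADP-dependent isocitrate dehydrogenase, was the enzyme that was higher at 4 µM (0.47).

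Among 18 tested regulators of mitochondrial gene expression, 5 were lower at 1 µM (limma, adjusted p), and 9 were lower and 2 higher at 4 µM, beside 20.9% lower at each dose and 21.2% higher at 4 µM over all features. TFB1M, an rRNA methyltransferase of the mitochondrial ribosome, had log2 fold changes of -0.87 at 1 µM and -1.03 at 4 µM. TFAM, which packages mitochondrial DNA and starts its transcription, was lower by the same amount at both doses (-0.51 each). TWNK, the helicase of mitochondrial DNA replication, was lower at 4 µM (-0.70) and lower at 4 µM than at 1 µM (-0.58, adjusted p = 0.00406). GABPB2 (0.54) and POLG (0.49) were higher at 4 µM. NRF1 itself was called at neither dose, YY1 was lower at 4 µM (-0.29), and PPARGC1A and PPARGC1B were not detected.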
